A study of Mus musculus with 17 samples.

Results

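CatSper is the calcium channel of the sperm tail, and the 10 genes described here encode its subunits: the pore proteins Catsper1, Catsper2, Catsper3 and Catsper4 (4 genes) and the auxiliary proteins Catsperb, Catsperd, Catsperg1, Catsperg2, Catsperz and Efcab9 (6 genes). They were taken by symbol from the 24594 genes of the gene table, and all 10 were found. The pore is a ring of 4 different proteins, each needed for the channel and for male fertility in mice. Catsperb, Catsperd and Catsperg form part of a canopy over the pore on the outside of the cell, while Catsperz and the EF-hand protein Efcab9 bind each other and the channel on the inside, where Efcab9 senses calcium. The channel opens in alkaline cytoplasm and its current drives hyperactivated motility.

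RNA was measured by sequencing in germ cells from testes of male C57BL/6JRj mice, labelled wild type (WT) and 3 months old, after digestion with collagenase and trypsin. Cells stained with Hoechst 33342 and SYTO 16 were sorted by flow cytometry into 5 stages, each with 3 libraries. The spermatocytes in meiotic prophase were LZ (leptotene/zygotene) and PD (pachytene/diplotene), and the haploid cells after meiosis were RS (round spermatids) and the elongating spermatids, early (EES) and late (LES). Single libraries, sorted with Hoechst 33342 alone, came from round spermatids of juvenile mice at 23 dpp (RS23) and from elongating spermatids sorted by Prm1-EGFP (PrmES), a reporter driven by a gene that spermatids express; the labels give these 2 libraries the same age and genotype as the rest, which their titles contradict, and the titles were followed. Whether the 3 libraries of a stage are 3 animals is not in the labels; every p-value below rests on the spread between libraries, which may be technical. Levels are in RPKM, reads scaled to exon length and library size, which allows levels of different genes to be compared.

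Totals ran from 90.6 M to 159.2 M reads per library, and the members were covered by 50 reads (Catsper3 in PD replicate 1) to 76160 reads (Catsperz in RS replicate 2). Summed markers of LZ spermatocytes, round spermatids and elongating spermatids were highest in the stages so labelled, with EES replicate 2 as an exception. The 5 PD markers all rose from LZ to PD, but their sum does not tell PD from later stages (2772 to 3416 RPKM from PD to LES): Piwil1, Pou5f2 and Ldhc were highest in PD, Ccna1 in RS and Pgk2 in elongating spermatids. In marker levels 2 libraries stood apart. LZ replicate 3 had 591 RPKM summed over 5 PD markers, against 127 and 113 in the other LZ libraries. EES replicate 2 had 616 RPKM summed over 5 round spermatid markers. The other EES libraries had 21.7 and 51, and the RS libraries 214 to 234. Singly, the 5 markers in EES replicate 2 ran from 96.7% (Hipk4) to 437% (Spaca4) of their RS means. In that library the sum of 6 elongating spermatid markers (47360 RPKM) was below the 107000 and 124700 of the other EES libraries. Sertoli cell markers, 7 of 7 in the table, summed to 38.4 to 67.3 RPKM in LZ and to 0.612 to 26.4 RPKM in the other stages, with Sox9 at 0 in EES replicate 1. Some results that rest on EES replicate 2 or LZ replicate 3 are given with and without them. With any 1 library left out, 6 members rose from LZ to PD, as with all libraries. The fold changes of those 6 at that step are given with all libraries only.

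The 4 pore genes share the feature that makes their products channels, and their coding sequences show it. In the pore loop each encodes threonine, any residue, aspartate, any residue, tryptophan, the filter whose aspartates face the passing calcium. A search of the coding sequences (GENCODE M21) found this codon pattern in frame once in each pore gene. The 39 bases around it follow, with the threonine, aspartate and tryptophan codons in capitals.
Catsper1: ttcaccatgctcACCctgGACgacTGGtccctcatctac
Catsper2: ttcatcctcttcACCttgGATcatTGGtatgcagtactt
Catsper3: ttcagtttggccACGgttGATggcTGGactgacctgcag
Catsper4: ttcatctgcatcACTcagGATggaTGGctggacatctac
The matches lie at coding bases 1588 to 1626 of Catsper1, 865 to 903 of Catsper2, 661 to 699 of Catsper3 and 691 to 729 of Catsper4. The genes themselves lie apart: on GRCm38.p6, Catsper1 at chr19:5335615-5344281, Catsper2 at chr2:121391633-121414598, Catsper3 at chr13:55784500-55824048 and Catsper4 at chr4:134211965-134227431.

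The subunits did not switch on together. The order followed the division into pore and auxiliary proteins only in part, Catsper2 and Efcab9 being the exceptions. Catsper2 and 5 of the 6 auxiliary genes rose between LZ and PD, in meiotic prophase. Catsper1, Catsper3, Catsper4 and Efcab9 rose only later, between PD and RS, by about 5 on the log2 scale. From RS to LES, 9 of the 10 RNAs fell, as did 55.4% of all tested genes. Catsperg1 was the one whose change did not pass the test, and its level is uncertain, as given below. When each library was centred on its median, 3 of the 10 still fell. In bulk samples such as these, fewer cells of a type and less RNA per cell cannot be told apart.

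**Figure D1:**
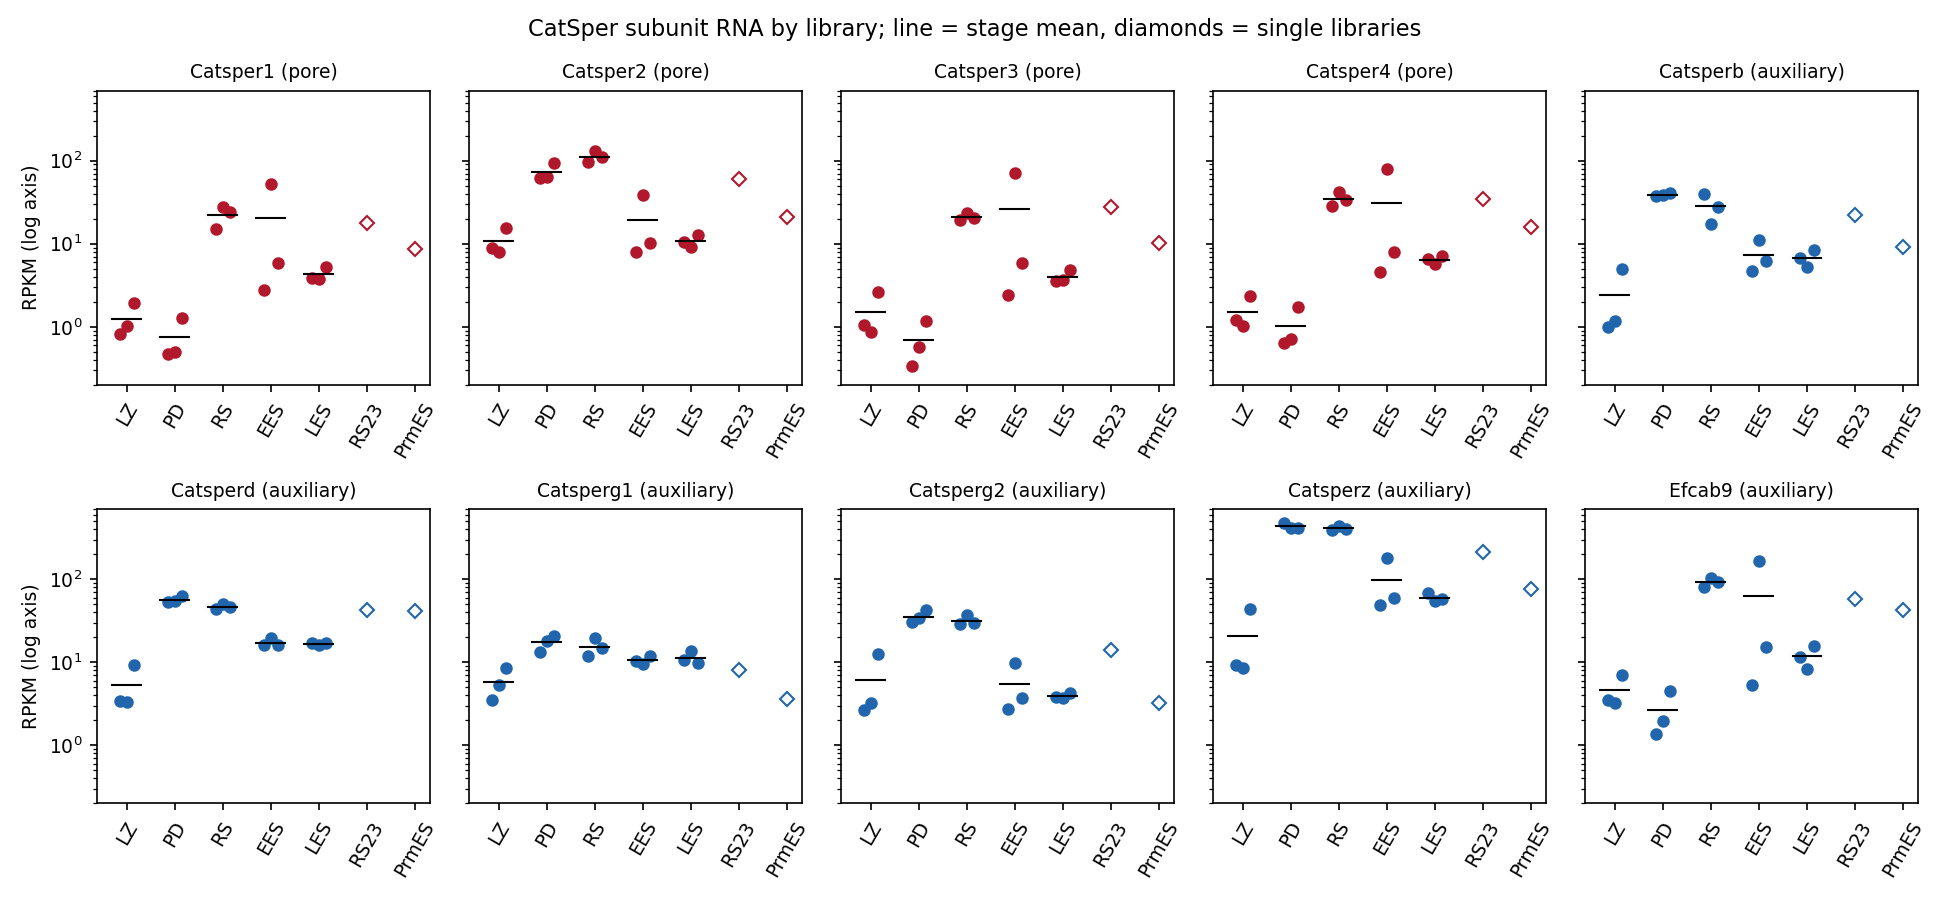
RPKM (log axis) of the 10 subunit genes in each library, by stage, pore genes in red and auxiliary genes in blue. Filled points are the 3 libraries of a stage, the line is their mean and open diamonds are the single libraries RS23 and PrmES. Catsper2 and 5 auxiliary genes are high from PD, the other 4 genes from RS, and EES replicate 2 stands above the other EES libraries for 9 genes, Catsperg1 being the exception.

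Among the pore genes, Catsper2 was the first to appear. It was at 8.76, 7.96 and 15.6 RPKM in the LZ libraries, 61.6, 64.2 and 92.9 in PD, 97.7, 129 and 110.1 in RS, 8, 39.1 and 10.2 in EES, and 10.4, 9.12 and 12.6 in LES. The LZ and PD libraries did not overlap, and the log2 fold change from LZ to PD was 2.80 ± 0.47 (SE, limma, adjusted p = 0.000147, n = 3 against 3). The RS libraries all lay above the PD libraries, but the change of 0.64 ± 0.47 did not pass the test (adjusted p = 0.305 by limma).

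Catsper1 was at 0.826, 1.01 and 1.91 RPKM in LZ, 0.469, 0.5 and 1.28 in PD, 15, 28 and 23.8 in RS, 2.8, 52.1 and 5.81 in EES, and 3.88, 3.72 and 5.2 in LES. Its highest PD library was at 1.28 RPKM and its lowest RS library at 15 RPKM. Its log2 fold change from PD to RS was 4.98 ± 0.81 (SE, limma, adjusted p = 0.000192).

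Catsper3 and Catsper4, which sit beside Catsper1 and Catsper2 in the pore ring, followed Catsper1. Catsper3 was at 1.04, 0.871 and 2.6 RPKM in LZ, 0.334, 0.57 and 1.17 in PD, 19.3, 23.7 and 20.3 in RS, 2.44, 70.3 and 5.94 in EES, and 3.57, 3.62 and 4.83 in LES. Catsper4 was at 1.2, 1.01 and 2.36 RPKM in LZ, 0.631, 0.712 and 1.72 in PD, 28.6, 42.3 and 33.9 in RS, 4.62, 79.6 and 8.04 in EES, and 6.55, 5.7 and 7.04 in LES. As with Catsper1, the LZ and PD libraries overlapped and the RS libraries stood clear above both. From PD to RS the log2 fold changes were 5.09 ± 0.91 for Catsper3 (adjusted p = 0.000426) and 5.21 ± 0.79 for Catsper4 (adjusted p = 0.000111, limma).

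The balance within the pore therefore differed between stages. Catsper2 RNA was 7.87 to 10.6 times that of Catsper1 in the LZ libraries, 72.7 to 131 times in PD, 4.6 to 6.52 times in RS and 2.42 to 2.68 times in LES, and in EES replicate 2 alone it was lower than Catsper1, at 0.751 times. The ratio of Catsper3 to Catsper1 stayed between 0.711 and 1.54 in all 17 libraries, and that of Catsper4 to Catsper1 between 1 and 1.92. These ratios are descriptions of levels per library, with no test.

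**Figure D2:**
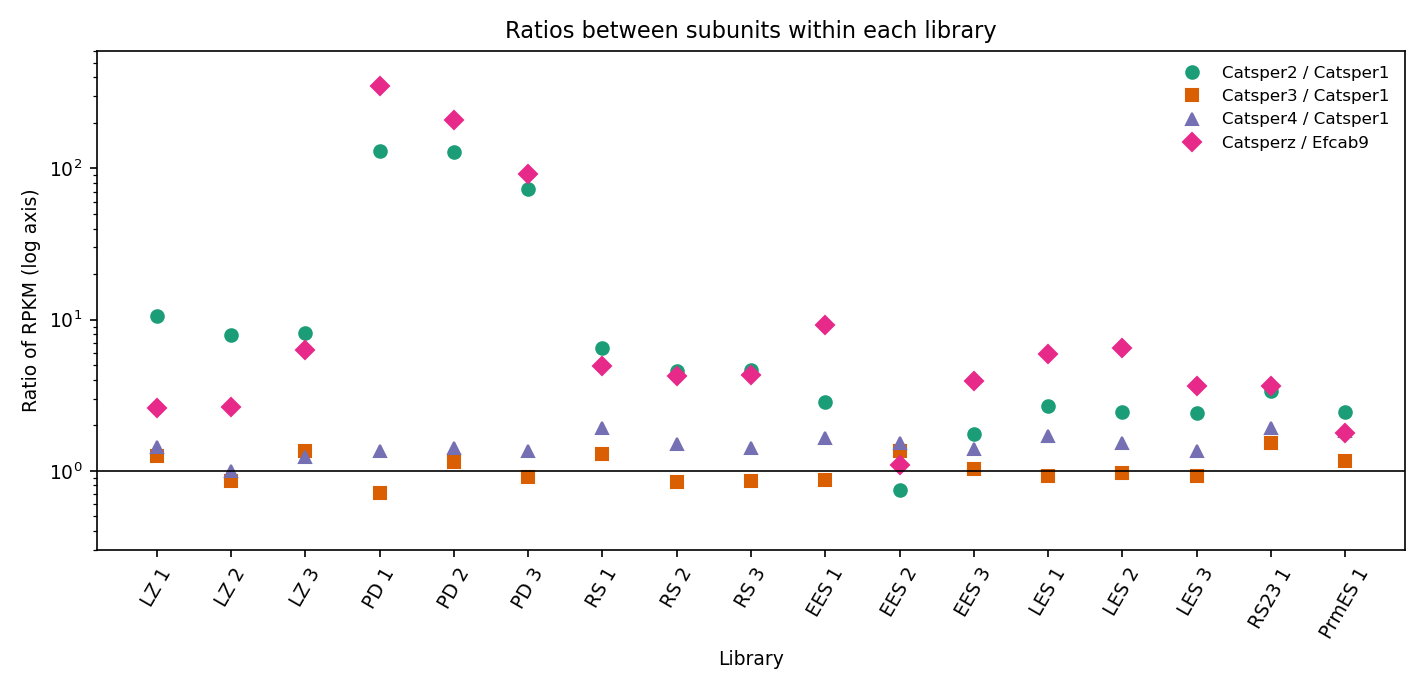
Ratio of RPKM between subunit genes within each of the 17 libraries (log axis). Catsper3 and Catsper4 stay near Catsper1 (ratios of 0.711 to 1.92), whereas Catsper2 over Catsper1 and Catsperz over Efcab9 reach 131 and 351 in the PD libraries.

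The genes of the canopy proteins, Catsperb, Catsperd, Catsperg1 and Catsperg2, all had their highest stage mean in PD. Catsperb was at 0.998, 1.17 and 4.99 RPKM in LZ, 37.3, 38.4 and 41.1 in PD, 40, 17.3 and 27.6 in RS, 4.73, 11.2 and 6.13 in EES, and 6.78, 5.19 and 8.42 in LES. Its PD libraries were tightly grouped, while its RS libraries differed by more than a factor of 2. Catsperd was at 3.45, 3.3 and 9.38 RPKM in LZ, 52.8, 54.2 and 63 in PD, 44.2, 50.1 and 45.7 in RS, 16.1, 19.3 and 16 in EES, and 17.1, 16.1 and 17 in LES. Unlike Catsperb, Catsperd kept every RS library below every PD library, though the change of -0.28 ± 0.32 on the log2 scale did not pass the test (adjusted p = 0.525 by limma). The log2 fold changes from LZ to PD were 4.42 ± 0.53 for Catsperb (adjusted p = 7.03e-06) and 3.57 ± 0.32 for Catsperd (adjusted p = 5.42e-07, limma).

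The third canopy protein is encoded in mice by 2 near-identical genes on chromosome 7, Catsperg1 (chr7:29181532-29215589) and Catsperg2 (chr7:29697217-29727049). Their coding sequences were identical at 96.4% of 3432 aligned bases, and 43% of the 50-base windows of Catsperg1 exons also occur in Catsperg2, so reads may have been split between them and both levels are uncertain. Catsperg2 was at 2.63, 3.27 and 12.6 RPKM in LZ, 30.5, 33.9 and 42.1 in PD, 28.5, 37.1 and 29.7 in RS, 2.7, 9.82 and 3.7 in EES, and 3.8, 3.67 and 4.27 in LES. Catsperg1 was at 3.55, 5.29 and 8.43 RPKM in LZ, 13.3, 18.2 and 20.8 in PD, 11.9, 19.4 and 15 in RS, 10.2, 9.51 and 11.9 in EES, and 10.5, 13.8 and 9.76 in LES. The pair differed after meiosis: Catsperg2 was 1.91 to 2.39 times Catsperg1 in RS and 0.266 to 0.438 times in LES. Both rose from LZ to PD, Catsperg1 by 1.66 ± 0.31 (adjusted p = 0.000311) and Catsperg2 by 2.88 ± 0.53 (adjusted p = 0.000287) on the log2 scale in limma.

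The assembled transcripts of the Catsperg1 strand ran on into Psmd8, a proteasome gene at 89.9 to 138 RPKM in the PD, RS, EES and LES libraries. Another assembled gene, of 1 exon, lay within Catsperg1 on the same strand. It was at 4.41, 13.6 and 8.19 RPKM in RS and at 17.5, 24.2 and 14.7 in LES. How far reads of Psmd8 or of this gene entered the Catsperg1 count was not tested. Because 2 assembled genes matched Catsperg1, assembled genes were used for the other 9 members only, each matched by 1. They gave the same calls for those 9 in all 6 comparisons, but they were counted in the same libraries and are no independent check. Overlap with a neighbour was no ground for leaving a member out: the assembled Catsperz gene overlaps Esrra and Kcnk4 on the same strand.

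Catsperz and Efcab9, partners in the cell-side part of the channel, rose at different steps. Catsperz had the highest level among the members wherever it was on. It was at 9.18, 8.48 and 44.3 RPKM in LZ, 479, 409.7 and 418 in PD, 396, 438 and 405 in RS, 49.1, 181 and 59.9 in EES, and 67.8, 54.2 and 57.1 in LES. This level is uncertain, as 33.9% of the 50-base windows of Catsperz exons also occur in the overlapping gene Kcnk4. Efcab9 was at 3.5, 3.2 and 7.01 RPKM in LZ, 1.37, 1.96 and 4.55 in PD, 80.1, 104 and 93.5 in RS, 5.3, 166 and 15.3 in EES, and 11.4, 8.38 and 15.8 in LES. Catsperz was already at its RS level in PD, when Efcab9 was at 1.48% to 4.92% of its RS mean. The ratio of Catsperz to Efcab9 was 91.9 to 351 in the PD libraries and 4.21 to 4.94 in RS. Catsperz rose from LZ to PD by 4.85 ± 0.56 (adjusted p = 5.43e-06) and Efcab9 from PD to RS by 5.32 ± 0.91 (adjusted p = 0.000296) on the log2 scale in limma.

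Across all genes, the counts read as follows. From LZ to PD, 6 of the 10 members rose and 0 fell (limma; 0 fell at an unadjusted p under 0.05 and 0 by voom), where 25.5% of the 13260 tested genes rose and 35.8% fell (61.2% in either direction). From PD to RS, 4 of 10 rose and 0 fell (0 at an unadjusted p under 0.05 and 0 by voom), where 23.4% of all tested genes rose and 15.2% fell. The members that rose at the 2 steps were different genes, so that each of the 10 rose once by these calls. The median change of the 4 pore genes was -0.71 from LZ to PD and 5.04 from PD to RS on the log2 scale, against -0.36 and 0.02 for all tested genes. That of the 6 auxiliary genes was 3.23 and then -0.17. All 10 members passed the filter of 1 RPKM in at least 3 of the 15 stage libraries, and all 10 differed over the 5 stages (F test in limma), as did 97.2% of tested genes. The libraries of PD lay wholly above those of LZ for 6 members, and 81.1% of tested genes had no overlap in either direction. For RS against PD, 5 members lay wholly above and 1 (Catsperd) wholly below, against 72.9% of tested genes in either direction.

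Without EES replicate 2, Catsper3 also fell from LZ to PD, by -1.12 on the log2 scale (adjusted p = 0.0463 in limma, against 0.291 with all libraries). Without LZ replicate 3, EES replicate 2 and PD replicate 3 together, a setting added after the values were seen, Catsper3 and Efcab9 both passed the threshold downwards (2 of 10). With quantile normalization the changes of Catsper1, Catsper3 and Catsper4 from LZ to PD turned to 0.56, 0.27 and 0.61, none past the threshold.

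**Figure D3:**
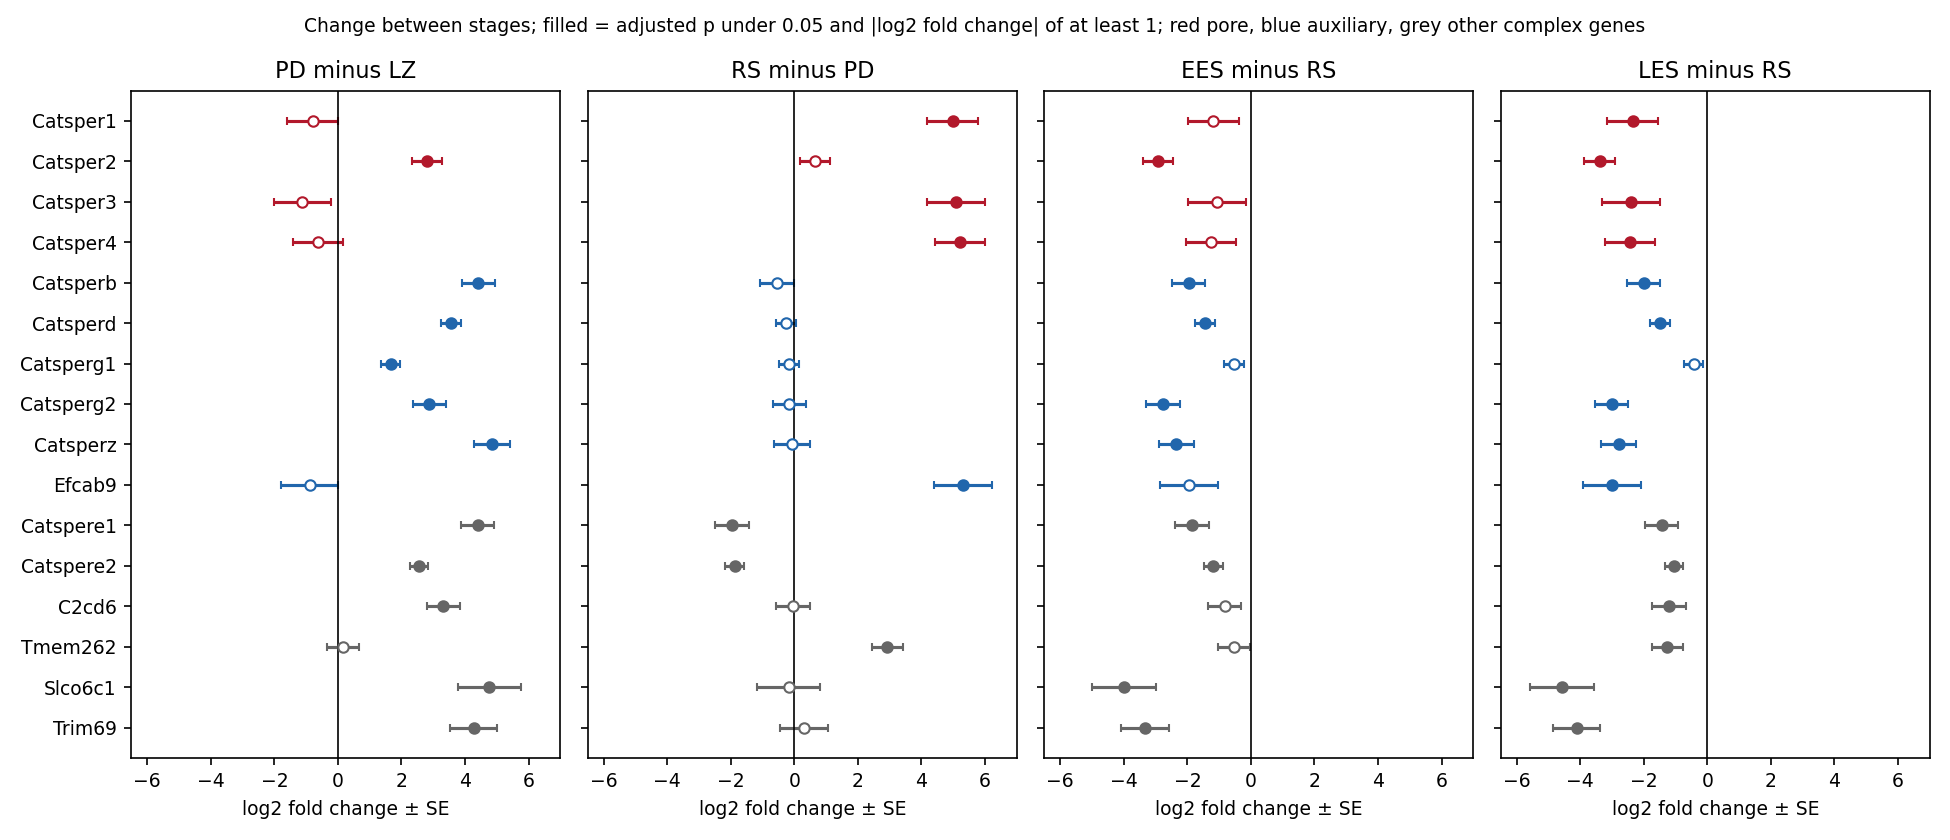
log2 fold change ± SE (limma, 3 libraries a stage) of the pore genes (red), auxiliary genes (blue) and other genes of the complex (grey) in 4 comparisons. Filled points passed an adjusted p under 0.05 and a change of at least 1. In the first 2 panels the filled points of the members fall on different genes, 6 from LZ to PD and 4 from PD to RS.

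The low levels of Catsper1, Catsper3, Catsper4 and Efcab9 before meiosis ends ran beside those of round spermatid markers in the same libraries. Relative to the RS mean, Catsper1 was at 3.71%, 4.54% and 8.59% in LZ and 2.11%, 2.25% and 5.74% in PD. The summed round spermatid markers (Acrv1, Spaca1, Izumo1, Hipk4 and Spaca4, all 5 in the table) were at 5.15%, 5.11% and 12.1% in LZ and at 1.77%, 1.83% and 4.65% in PD. LZ replicate 3 and PD replicate 3 were the highest of their stage for both. None of the 5 markers was at 0 in any LZ or PD library. The part of round spermatid RNA in these low levels was not tested.

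For the members that rose first, LZ levels are given beside the PD markers. Catsperz was at 2.1%, 1.95% and 10.2% of its PD mean in the LZ libraries and Catsperb at 2.56%, 3.01% and 12.8%, while the summed PD markers (Piwil1, Pou5f2, Ccna1, Ldhc and Pgk2) were at 3.81%, 3.4% and 17.8%. The other 4 were above the marker sum in LZ replicates 1 and 2: Catsperd at 6.09%, 5.82% and 16.6%, Catsperg2 at 7.42%, 9.21% and 35.3%, Catsper2 at 12%, 10.9% and 21.4%, and Catsperg1 at 20.4%, 30.4% and 48.4%. LZ replicate 3 was the highest LZ library for all 6. The marker sum was mostly Ldhc, at 2732 to 2915 RPKM in the PD libraries, where the sum was 3214 to 3416. In LZ replicates 1 and 2 the other markers lay on both sides of its share. Pgk2 was there at 23.7 and 21.1 RPKM (141 to 189 in PD), and Piwil1 at 6.16 and 9.06 (104 to 127 in PD). Pou5f2 was at 2.15 and 2.24 (121 to 141 in PD), and Ccna1 at 3.56 in both (93 to 139 in PD). The part of PD cells in the LZ levels was not tested.

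**Figure D4:**
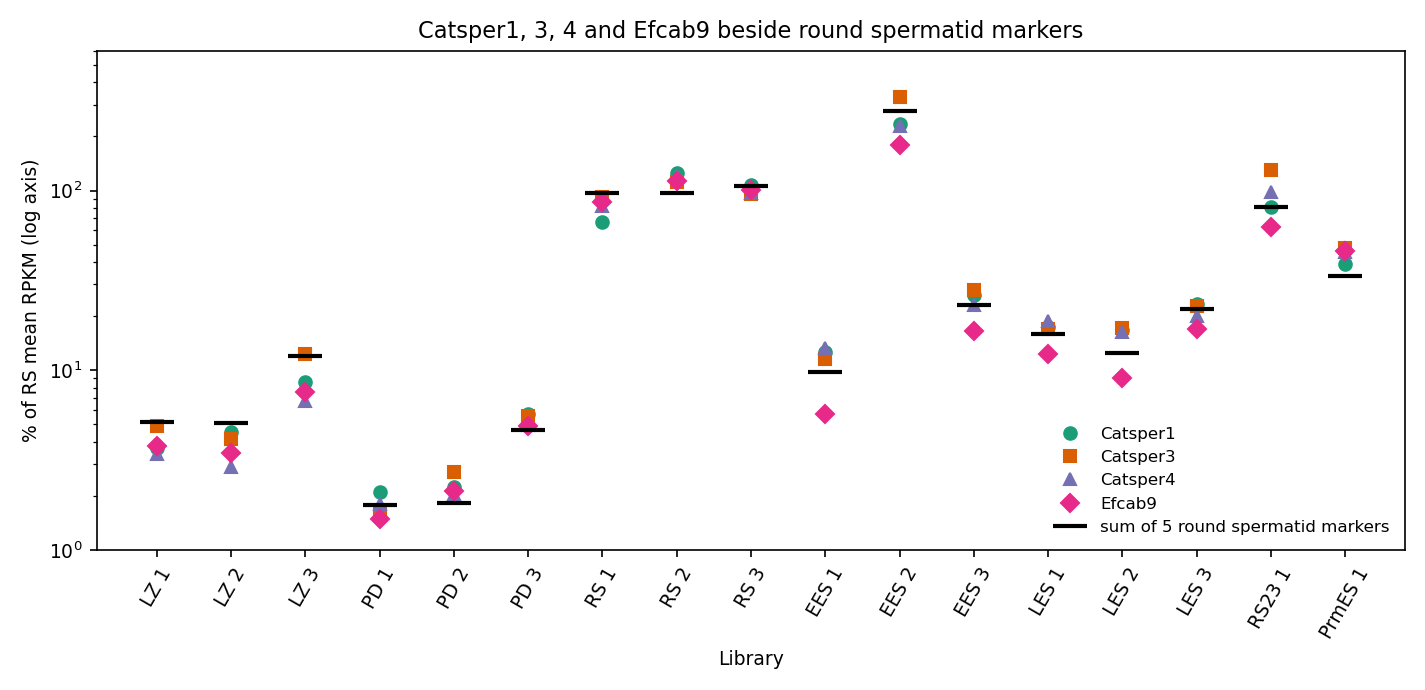
Catsper1, Catsper3, Catsper4 and Efcab9 in each library as a percentage of their RS mean (log axis), with the summed RPKM of 5 round spermatid markers on the same scale (black bars). The genes and the markers are high and low in the same libraries, from 1.77% for the marker sum in PD replicate 1 to 278% in EES replicate 2.

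The changes of the members as spermatids elongated have to be read beside a fall of most genes, and at the first step the count depended on EES replicate 2. From RS to EES, 5 of 10 members fell (Catsper2, Catsperb, Catsperd, Catsperg2 and Catsperz) and 0 rose (limma; 0 at an unadjusted p under 0.05 and 0 by voom), where 54.9% of tested genes fell, 15.8% rose (70.8% in either direction) and the median of all tested genes moved by -1.42 on the log2 scale. By voom 6 fell, Efcab9 being the one added (adjusted p = 0.0389), and limma on quantile-normalized values also called Efcab9 (-1.51, adjusted p = 0.0494). The EES libraries lay wholly below the RS libraries for 6 members, the 5 and Catsperg1, and 76.3% of tested genes had no overlap in either direction. The largest change was that of Catsper2 at -2.92 ± 0.47 (adjusted p = 9.88e-05) and the next Catsperg2 at -2.77 ± 0.53 (adjusted p = 0.000355). In EES replicate 2, Catsper1, Catsper3, Catsper4 and Efcab9 stood at 234%, 333%, 228% and 179% of their RS means, beside 278% for the round spermatid markers, while in EES replicates 1 and 3 they were at 5.73% to 28.1%. Without that library, 9 of 10 members fell: Catsper1 by -2.42 (adjusted p = 0.000385), Catsper3 by -2.46, Catsper4 by -2.5 and Efcab9 by -3.35 (adjusted p = 5.13e-05) joined the 5. The part of round spermatids in EES replicate 2 was not tested.

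Between early and late elongating spermatids no change of a member passed the test: 0 of 10 rose or fell from EES to LES (limma; 0 at an unadjusted p under 0.05 and 0 by voom), and all 10 overlapped between the stages, where 0.00754% of tested genes rose, 0% fell and 8.16% had libraries that did not overlap. The largest change was that of Catsper3, -1.34 ± 0.91, with EES replicate 2 on the high side. That does not show the stages to be alike, since the 95% confidence interval of this change was wide (-3.305 to 0.622, limma). Without EES replicate 2 the change of Catsper3 was 0.06.

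From RS to LES, 9 of 10 members fell and 0 rose (limma, with 0 rising at an unadjusted p under 0.05 and 0 by voom). Of tested genes, 55.4% fell and 17.4% rose, and the median of all genes was -1.43. The EES libraries do not enter these fold changes, but they do enter the shared estimate of spread behind the p-values and calls. The 9 had no overlap between the stages, and 85.7% of tested genes had none in either direction. Catsper2 fell furthest, by -3.39 ± 0.47 (adjusted p = 2.95e-05), followed by Catsperg2 at -3.01 ± 0.53 and Efcab9 at -3 ± 0.91 (adjusted p = 0.00806). Catsperd fell least among the 9, by -1.48 ± 0.32, close to the median of all genes. Catsperg1 changed by -0.43 ± 0.31 (adjusted p = 0.212). When each library was centred on its median, 3 of 10 members still fell (Catsper2, Catsperg2 and Catsperz), Catsperg1 rose by 1.11 (adjusted p = 0.0219) and Catsperd stood at 0.06. The calls of Catsper1 and Catsper3 in this comparison depended on which library was left out. That of Catsper1 was lost without RS replicate 2 (adjusted p = 0.0524). That of Catsper3 was lost without any 1 of RS replicates 1, 2 and 3 or LES replicates 1 and 2 (adjusted p = 0.0514 to 0.0651). With each library left out in turn, the adjusted p by limma ran from 0.000193 to 0.0524 for Catsper1 and from 0.000377 to 0.0651 for Catsper3.

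From PD to LES, Catsper1, Catsper3, Catsper4 and Efcab9 rose (4 of 10), by 2.64, 2.69, 2.79 and 2.31, and 5 of 10 fell, where 24.5% of tested genes rose and 54.3% fell (78.8% in either direction). Catsperg1 changed by -0.61 ± 0.31 (adjusted p = 0.0815). Of the 5 round spermatid markers 4 rose in the same comparison, with a median change of 2.42, and their part in the 4 rises was not tested. When each library was centred on its median, the fall of Catsperd was lost (-0.45, adjusted p = 0.209 in limma). These 9 members had no overlap between PD and LES libraries, and 89.9% of tested genes had no overlap in either direction. The rise of Efcab9 was lost without PD replicate 1 or 2 or without LES replicate 1 or 3 (adjusted p = 0.0599 to 0.1), and that of Catsper3 without PD replicate 1 (adjusted p = 0.0585), which left 2 of 10. These comparisons share their PD, RS and LES libraries. With each library left out in turn, the adjusted p by limma from PD to LES ran from 0.00042 to 0.1 for Efcab9. For Catsper3 it ran from 0.000123 to 0.0585.

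Divided into pore and auxiliary genes, the subunits gave a difference of mean log2 RPKM (pore minus auxiliary) of -0.87, -1.09 and -1.54 in the LZ libraries, -4.15, -4.05 and -3.35 in PD, and -0.79, -0.34 and -0.52 in RS. It was -1.18, 1 and -0.79 in EES and -1.16, -1.12 and -0.95 in LES. The PD libraries lay apart from all others. Divided instead into Catsper1, Catsper3, Catsper4 and Efcab9 against the other 6, a grouping chosen from these values, the difference was -6.44, -6.14 and -5.16 in PD and -0.9, -0.47 and -0.62 in RS. EES replicate 2 was the one EES library above 0 in both divisions.

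**Figure D5:**
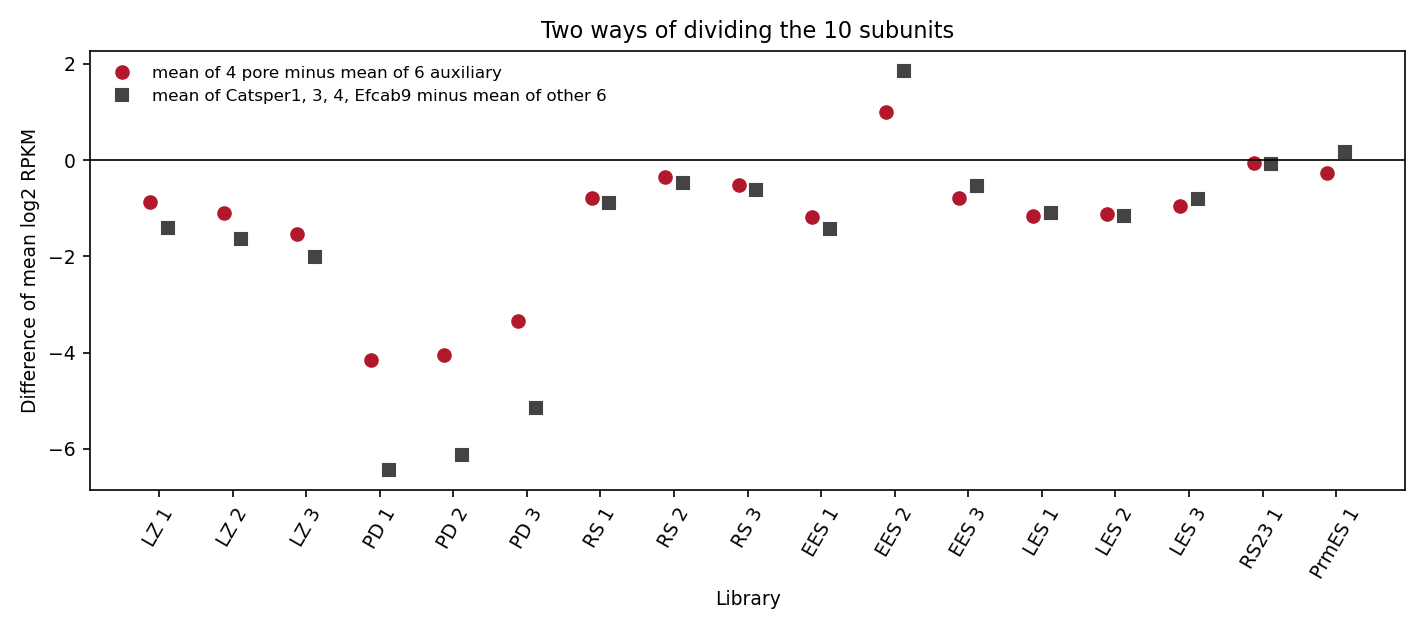
Difference of mean log2 RPKM within each library, for the pore genes minus the auxiliary genes (red circles) and for Catsper1, Catsper3, Catsper4 and Efcab9 minus the other 6 (grey squares). Both are lowest in the PD libraries, at -3.35 to -4.15 and -5.16 to -6.44.

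Over the 15 stage libraries the log2 levels of Catsper1, Catsper3, Catsper4 and Efcab9 had Pearson correlations of 0.983 to 0.996 with each other. Catsper2 had correlations of 0.287 to 0.314 with the other pore genes and of 0.962 with Catsperg2. These points share libraries, stages and depth and are given as a description. Of 5822 genes ranked by their correlation with the mean of the pore genes, the 5 highest were Tsga8, Fam24a, Spata45, Zdhhc11 and Zp3r (r of 0.987 to 0.99 over 15 libraries). Tsga8, the first of them, was at 7.11 ± 3.96 RPKM in LZ, 5.59 ± 1.49 in PD, 138 ± 10.7 in RS, 93 ± 127 in EES and 20.1 ± 5.1 in LES (SD, n = 3). In EES it was at 12.8, 240 and 26.7 RPKM, with replicate 2 the highest, and the correlations were not computed without that library. Catsper2 itself had a correlation of 0.499 with the mean of the pore genes.

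The sequence before the start sites was compared between members that rose at different steps. RefSeq windows of GRCm38.p6 (250 bases before to 50 after a start) matched 8 of the 10 members, in 10 windows. Both strands were searched for letters that factors of the testis are known to bind: the CRE core TGACG, the MYB element CAACNG or TAACNG, the RFX element GTTGCNA, the TATA element TATAAA and the SOX core ACAAT. The 250 bases before the start are shown for 2 genes that rose from LZ to PD (Catsper2, Catsperb) and 2 that rose from PD to RS (Catsper3, Catsper4), written 5′ to 3′ on the gene's strand with every match in capitals.
Catsper2, chr2:121413793-121414042 (- strand): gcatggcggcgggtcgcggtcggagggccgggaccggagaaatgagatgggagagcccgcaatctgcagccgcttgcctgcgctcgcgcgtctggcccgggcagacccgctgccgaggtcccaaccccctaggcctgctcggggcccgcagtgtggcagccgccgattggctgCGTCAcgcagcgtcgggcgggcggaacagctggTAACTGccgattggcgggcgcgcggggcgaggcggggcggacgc
Catsperb, chr12:101404423-101404672 (+ strand): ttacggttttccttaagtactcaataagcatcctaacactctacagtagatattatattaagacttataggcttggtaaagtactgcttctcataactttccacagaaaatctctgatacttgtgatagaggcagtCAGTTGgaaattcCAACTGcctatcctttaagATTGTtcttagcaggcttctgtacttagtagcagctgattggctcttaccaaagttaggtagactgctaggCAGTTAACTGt
Catsper3, chr13:55784329-55784578 (+ strand): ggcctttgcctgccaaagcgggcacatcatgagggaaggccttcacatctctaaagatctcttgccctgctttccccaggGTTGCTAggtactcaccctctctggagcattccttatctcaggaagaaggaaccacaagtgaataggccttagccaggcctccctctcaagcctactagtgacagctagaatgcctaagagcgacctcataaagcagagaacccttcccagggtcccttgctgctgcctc
Catsper4, chr4:134227384-134227633 (- strand): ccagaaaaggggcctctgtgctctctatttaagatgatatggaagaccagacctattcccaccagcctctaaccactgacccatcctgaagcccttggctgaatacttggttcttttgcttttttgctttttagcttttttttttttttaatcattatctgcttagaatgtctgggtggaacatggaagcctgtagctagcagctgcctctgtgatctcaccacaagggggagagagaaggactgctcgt
Catsper2 held a CRE core at position -77 and a MYB element at -44, counted from the start. Catsperb held 4 MYB matches, at -114, -101, -11 and -7, the last 2 overlapping, and a SOX core at -82. Catsper3 held an RFX element at -170. Catsper4, which rose at the same step as Catsper3, held no match of the 5 motifs, and neither did Catsperz, which rose early. The RefSeq window of Efcab9, not shown, held a SOX core at -63 and an RFX element at 22, but it belongs to a start 5666 bases inside the gene. The start used for Catsper2 also lies inside its gene, by 806 bases, and those of Catsperb, Catsper3 and Catsper4 by 28, 79 and 48 bases. MYB matches were in 3 members (Catsper2, Catsperb and Catsperd) and in 49.7% of all 32851 windows of this length, and RFX matches in 2 members (Catsper3 and Efcab9) and in 10.4% of all windows. CRE cores were in 2 members (Catsper2 and Catsperd) and in 20.8% of all windows, SOX cores in 2 members and in 31% of all windows, and the TATA element in Catsperg1 only and in 13.6% of all windows. The Catsperg1 window with the TATA element belongs to a start 1556 bases inside the gene. The Catsperd windows with the CRE cores and with the MYB matches belong to starts 136 and 1232 bases inside. The windows shown ran from 38% (Catsperb) to 74.8% (Catsper2) G and C. A match is a run of letters, and the series holds no measure of binding.

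Other genes of the complex also changed at these steps. Of 7 listed, 6 were in the table; Tmem249 was not analysed here. Catspere1 and Catspere2, paralogues of a further canopy protein, rose from LZ to PD by 4.40 ± 0.52 and 2.56 ± 0.29, and fell from PD to RS by -1.96 ± 0.52 (adjusted p = 0.00729) and -1.88 ± 0.29 (adjusted p = 0.000127, limma). Catspere1 was at 56.3, 60.8 and 71.5 RPKM in PD and 25.3, 10.4 and 15.6 in RS, and no member of the 10 fell at that step. C2cd6, a C2-domain protein needed to place the channel in the tail, rose from LZ to PD by 3.32 ± 0.52, as did Slco6c1, a transporter found with the channel (4.77 ± 1.00), and Trim69 (4.27 ± 0.75). Tmem262, a small membrane protein of the complex, was the one that rose from PD to RS, by 2.93 ± 0.49 (adjusted p = 0.000272). It was at 3.05, 2.73 and 2.9 RPKM in PD, 17.6, 25.8 and 23.8 in RS, and 7.72, 46.9 and 9.72 in EES, where EES replicate 2 was again the highest. In all, 5 of 6 rose from LZ to PD, 1 rose and 2 fell from PD to RS, 4 fell from RS to EES and 6 fell from RS to LES. Among all tested genes, 25.5% rose from LZ to PD, and 23.4% rose and 15.2% fell from PD to RS. From RS to EES 54.9% of them fell, and from RS to LES 55.4%. The median change of the 6 from RS to LES was -1.34, against -1.43 for all tested genes. The fall of C2cd6 was close to the threshold (adjusted p = 0.0486, limma).

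The channel works with transporters and enzymes that set pH, voltage, cAMP and calcium, and of 22 such genes 19 were tested. From LZ to PD 8 rose and 4 fell, from PD to RS 7 rose and 1 fell, and from RS to LES 5 rose and 11 fell. Of all tested genes, 25.5% rose and 35.8% fell at the first step, 23.4% rose and 15.2% fell at the second, and 17.4% rose and 55.4% fell from RS to LES. Calm2 and Calm3 encode the calcium sensor calmodulin: Calm2 was at 634 ± 21.3 RPKM in PD, 85 ± 5.76 in RS and 21.8 ± 12.7 in LES (SD, n = 3), and Calm3 at 283 ± 10.3, 243 ± 46.2 and 52.4 ± 5.4. Other genes went the opposite way to the channel at the end. Atp1a4, the sodium pump of sperm, was at 23.6 ± 6.21 RPKM in RS and 533 ± 57.6 in LES, Cabyr, a calcium-binding protein of the fibrous sheath, at 42.4 ± 8.37 and 179 ± 4.95, and Adcy10, the bicarbonate-sensitive adenylyl cyclase, at 48.8 ± 5.28 and 109.6 ± 11.9. Each of these 3 rose from RS to LES (log2 fold changes of 4.53, 2.10 and 1.17). The potassium channel Kcnu1 and its partner Lrrc52, named after their values were seen, rose from PD to RS by 3.64 ± 0.67 and 4.2 ± 0.75 (adjusted p = 0.000537 and 0.000421, limma), the step at which Catsper1, Catsper3 and Catsper4 rose.

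The single libraries have no replicate and were given no test. In RS23, 6 members lay below the range of the 3 RS libraries, 3 within it (Catsper1, Catsper4 and Catsperb) and 1, Catsper3, above it at 27.5 RPKM. Catsperz was at 210.0 RPKM in RS23, 0.509 times its RS mean, and Catsper4 at 34.4 RPKM, 0.985 times its RS mean. Of all tested genes, 46.9% lay below that range, 20.2% within it and 32.8% above it. In PrmES, 8 members lay within the range of the EES and LES libraries together, where 57.2% of tested genes did, with Catsperd above it and Catsperg1 below it. Against the LES libraries alone, 8 members lay above the range and 2, Catsperg1 and Catsperg2, below it, where 46.8% of tested genes lay above and 27% below. Efcab9 was at 42.8 RPKM there, 3.61 times its LES mean, beside round spermatid markers at 33.6% of the RS mean, against 12.5% to 21.8% in LES. Both libraries were sorted with another stain than the 15 stage libraries, and their deposited names carry another prefix, which the labels do not explain. These differences go together with age in RS23 and with the reporter in PrmES, so they cannot be told apart. What part any of them has in these values was not tested.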

How the data were processed

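RNA was sequenced in 17 libraries. The submitters' processing notes name Trim Galore, STAR, GRCm38 and mm10; tool versions, the counter and its strand setting: not given in the sources used here. StringTie 1.3.4d assembled the transcripts, per the file headers; the deposited coordinates are of the unit other. The deposited values are log2 values, log2(100 × RPKM + 1) with RPKM as the authors' unit, a pseudocount of 0.01 RPKM; scaled back with exon length, they were whole reads to within 0.01 for 100.0% of the 23715 genes with a read, which gave the library totals.

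Genes at 1 RPKM or more in at least 3 of 15 stage libraries (13260) were fitted together in limma 3.58.1 (R 4.3.3; lmFit, eBayes with trend), with no covariates, and called at a Benjamini-Hochberg adjusted p under 0.05 and an absolute log2 change of at least 1. The test was run on simulated data first. RS23 and PrmES stayed out. Members and lists were chosen with earlier results of these data known. All 10 members and 7 other complex genes are named, with 6 of 22 ion and signalling genes (those past the threshold with the highest stage mean; 1 of the 6 is not reported here) and the 5 genes most like the pore mean. Promoter windows are from RefSeq (GRCm38.p6) and coding sequences from GENCODE M21. Marker lists of spermatogonia, Leydig, myoid, macrophage, endothelial and red cells summed to at most 45.9, 6.5, 1.59, 10.4, 0.277 and 15.4 RPKM in any library. Pseudocount, filter, scaling, variance model, left-out libraries, replicate block and assembled genes were varied.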

Additional observations from a re-analysis of the deposited data

How the results depend on the processing

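With a pseudocount of 1 RPKM, 2 members rose from PD to LES. Under median centring, 2 members fell from RS to EES, and from RS to LES 1 rose and 3 fell; under quantile normalization 5 fell from RS to LES. Medians of all genes from RS to EES and RS to LES were -1.42 and -1.43, 0.02 and 0.12 after median centring, and -0.26 and -0.28 after quantile normalization. Median centring turned the changes of Catsper1, Catsper3, Catsper4 and Catsperg1 from RS to EES to 0.26, 0.39, 0.18 and 0.92, of Catsperb and Catsperd from EES to LES to 0.05 and 0.06, of Catsperd and Catsperg1 from RS to LES to 0.06 and 1.11, and of Catsperg1 from PD to LES to 0.70. Quantile normalization turned Catsper1, Catsper3 and Catsper4 from LZ to PD to 0.56, 0.27 and 0.61, Catsperb and Catsperd from EES to LES to 0.18 and 0.17, and Catsperg1 from RS to EES, RS to LES and PD to LES to 0.35, 0.65 and 0.33.

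Without LZ replicate 3 and EES replicate 2 together, 9 members fell from RS to EES, and without PD replicate 3 as well (added after the values were seen) 9 fell, with 2 falling from LZ to PD. In both settings the changes from EES to LES turned to 0.07 (Catsper1, Catsper4), 0.23 (Catsper2), 0.06 (Catsper3, Catsperd), 0.31 (Catsperb, Catsperg2), 0.13 (Catsperz) and 0.35 (Efcab9). With 1 library left out at a time, the change from EES to LES ranged from -2.04 to 0.07 for Catsper1, -0.91 to 0.23 for Catsper2, -2.36 to 0.06 for Catsper3, -1.98 to 0.07 for Catsper4, -0.31 to 0.31 for Catsperb, -0.08 to 0.06 for Catsperd, -0.05 to 0.2 for Catsperg1, -0.62 to 0.31 for Catsperg2, -0.81 to 0.13 for Catsperz and -2.13 to 0.35 for Efcab9. Leaving out 1 library at a time gave 0 to 1 falls from LZ to PD, 5 to 9 falls from RS to EES and 2 to 4 rises from PD to LES, and 1023 of 1050 member values kept their direction and side of the threshold; 11 changed sign, all from EES to LES, 9 of them without EES replicate 2. Pore minus auxiliary moved with the assembled genes to -1.65 in LZ, -4.42 in PD, -1.27 in RS and -1.5 in LES, and without Catsperg1 and Catsperg2 to -1.19 in RS and -1.51 in LES. Whether replicate numbers pair the libraries was not settled. Of 30 same-number correlations 4 exceeded 0.1 (range -0.252 to 0.242), and deviations from means of 3 libraries cannot decide it. With the replicate block 6 members rose from LZ to PD, 4 rose from PD to RS and 5 fell from RS to EES, the same counts as without it, and it changed no call of a member.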

Other observations

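Catsperz overlaps Kcnk4 on the same strand: 33.9% of the 50-base windows of its exons also occur in Kcnk4, a potassium channel gene. Kcnk4 was at 0.121 to 0.156 times Catsperz in all 17 libraries. An assembled gene on the strand opposite Catsperz was at 0.423 to 0.45 times the assembled Catsperz gene in all 17. Whether counting used strand is not given in the sources used here, so reads of these overlapping genes cannot be told apart, and how far they share reads was not tested. Pdia3, which overlaps Catsper2 on the other strand, was at 0.668 to 8.17 times Catsper2 and so did not hold to a fixed ratio.

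The RS libraries differed for some genes in opposite orders. Catsperb was at 40, 17.3 and 27.6 RPKM in RS replicates 1, 2 and 3, Catspere1 at 25.3, 10.4 and 15.6, and Slco6c1 at 145, 54.1 and 96.9, whereas Catsper1 was at 15, 28 and 23.8. The summed markers of LZ spermatocytes were 95.8, 55.5 and 59.2 RPKM in the same libraries; their part in these values was not tested.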
